A study of Mus musculus with 33 samples.

Results

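The genes described here were Foxp3 and 7 further genes commonly used to recognise regulatory T cells (Tregs), namely Ikzf2, Ikzf4, Nrp1, Lrrc32, Gpr83, Capg and Izumo1r. They were found by symbol in the GRCm38 gene annotation, which gave 8 of the 31054 counted features, and were measured by bulk RNA-Seq in 33 libraries of 11 mouse cell subsets with 3 libraries each. All mice were DEREG mice on a C57BL/6 background, in which a transgene carrying the diphtheria toxin receptor and enhanced GFP (EGFP) is driven by the Foxp3 promoter. Tolerant mice had received 4000 islet equivalents of porcine neonatal islet cell clusters (NICC) under the renal capsule together with a single 500 µg dose of CTLA4-Fc and repeated 500 µg doses of MR-1, an antibody against CD154, and were killed at day 100, whereas naive mice had neither transplant nor treatment. The 7 Treg subsets were sorted as CD4+GFP+ cells: SP/naive Tregs of naive spleen, SP/CD127-/lo and SP/CD127hi Tregs of tolerant spleen, graft Tregs from the transplant site under the kidney capsule, and the naive (DLN/naive), CD127-/lo (DLN/CD127-/lo) and CD127hi (DLN/CD127hi) Tregs of the kidney lymph node. The 4 Foxp3- subsets were CD4+GFP- T cells (SP/naive CD4+ and SP/tolerant CD4+) and CD45+CD4- cells (SP/naive CD45+CD4- and SP/tolerant CD45+CD4-) of the spleen.

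Tregs are CD4+ T cells that restrain other immune cells, and the forkhead transcription factor Foxp3 defines the lineage and holds its programme in place. Helios (Ikzf2) and Eos (Ikzf4) are zinc finger factors of the Ikaros family that act with Foxp3. Neuropilin-1 (Nrp1) binds semaphorins and vascular growth factors on the cell surface, GARP (Lrrc32) presents latent TGF-β on activated Tregs, Gpr83 is a G protein-coupled receptor, folate receptor 4 (Izumo1r) is a glycolipid-anchored surface protein, and Capg caps actin filaments and is also known from macrophages.

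Foxp3 (ENSMUSG00000039521) lies on the plus strand of chromosome X at chrX:7573644-7595245 in GRCm38. Izumo1r (ENSMUSG00000031933, chr9:14885814-14903949, minus strand) and Gpr83 (ENSMUSG00000031932, chr9:14860210-14870789, plus strand) are neighbours that face each other across 15024 bases. The others are Ikzf2 (ENSMUSG00000025997, chr1:69531214-69687245, minus strand), Ikzf4 (ENSMUSG00000002578, chr10:128630843-128645991, minus strand), Nrp1 (ENSMUSG00000025810, chr8:128358604-128503363, plus strand), Lrrc32 (ENSMUSG00000090958, chr7:98489283-98502181, plus strand) and Capg (ENSMUSG00000056737, chr6:72544391-72562983, plus strand). Foxp3 shares exon sequence with counted neighbours, namely 18.6% of its exon bases with the noncoding RNA Flicr on the same strand, 12.9% with Ccdc22 and 5.81% with Ppp1r3f on the opposite strand. The kit does not mark the strand, and reads in these stretches are counted for neither gene.

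The Foxp3 promoter drives the reporter used for the sort. Gpr83 and Izumo1r were the members whose CD127hi and CD127-/lo Tregs were separate in spleen and also in DLN. Those of Foxp3 were separate in spleen only and those of Nrp1 in DLN only. The sequence before the start sites of Foxp3, Gpr83 and Izumo1r is shown. RefSeq promoter sequences on GRCm38.p6 were found for 5 of the 8 members at 6 start sites, and Ikzf2, Ikzf4 and Lrrc32 had no entry. Each 250-base stretch before a start site was searched on both strands for 8 short motifs, whose letters are given with their frequency after the sequences. Sequences run 5′ to 3′ on the strand of the gene, and capitals mark motif letters.
Foxp3 chrX:7580233-7580482 (+), 250 bases before the start site at 7580483, outside every annotated Foxp3 exon, with an NFAT match on the reverse strand overlapping a STAT match: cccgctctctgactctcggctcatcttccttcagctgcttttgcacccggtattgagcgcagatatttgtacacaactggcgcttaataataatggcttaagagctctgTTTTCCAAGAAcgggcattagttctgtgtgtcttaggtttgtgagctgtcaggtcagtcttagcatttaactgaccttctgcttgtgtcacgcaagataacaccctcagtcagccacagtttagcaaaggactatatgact
Foxp3 chrX:7579632-7579661 (+), around a TATA match 32 to 27 bases before the start site at 7579676: ttttcttctcggTATAAAagcaaagttgtt
Gpr83 chr9:14859960-14860209 (+), 250 bases before the start site at 14860210, with no match to the 8 motifs: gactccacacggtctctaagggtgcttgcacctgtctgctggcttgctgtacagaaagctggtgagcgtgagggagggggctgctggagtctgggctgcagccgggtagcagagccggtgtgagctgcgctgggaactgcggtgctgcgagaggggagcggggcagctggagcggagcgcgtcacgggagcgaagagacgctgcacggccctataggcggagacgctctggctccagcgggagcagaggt
Izumo1r chr9:14903877-14903906 (-), around a Runx match on the reverse strand 127 to 122 bases before the start site at 14903767, where 3 of 5 transcripts have an exon: gggatctctggtACCACAaggtcttgtttc

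In the Foxp3 stretch, the NFAT letters lay 141 to 136 bases and the STAT letters 139 to 131 bases before the start site. Among 32851 mouse promoters of the same length, the letters GGAAAA searched for NFAT were present in 20.4%. The STAT letters TTCNNNGAA occurred in 7.02% of them, the TATA letters TATAAA in 12.4% and the Runx letters TGTGGT in 14%. None of the 3 genes shown held the forkhead letters TGTTTAC, which occurred in 3.17% of promoters, or the letters TGANTCA of the AP-1 motif, which occurred in 6.75%. They also lacked the letters GGGCGG of the GC box, found in 32.7% of promoters, and the cAMP response letters TGACGTCA, found in 1.55%. GC content was 37.6% and 46.0% before the Foxp3 start sites, 66.8% before Gpr83 and 50% before Izumo1r, with a median of 52.4% over all promoters. Nrp1 (64.4% GC) held 1 GC box and Capg (57.6% GC) no match.

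The libraries were made from 1000 sorted cells each and held 2550698 to 4615283 counts on genes in spleen and graft and 844039 to 1935323 in the DLN. In CPM (counts scaled to a common library total), the upper limit for a gene with no read, taken as 3 counts, was 0.650 to 1.18 in spleen and graft and 1.55 to 3.55 in the DLN, which covers counting error only. The DLN libraries were sequenced on a MiSeq and all others on a NextSeq 500. For the DLN, effects of the tissue and of the sequencer cannot be told apart. Tolerant mice and the naive mice used for spleen were male, and the naive mice used for DLN were female, so that comparisons with DLN/naive Tregs cannot be told apart from a difference of sex. The libraries are described as pools of 3 to 4 mice taken from 10 tolerant mice and from 3 naive mice per tissue. The 3 naive mice are too few to fill 3 pools of different animals, so that p-values measure only the spread between these libraries, which in naive subsets may be technical. Summed T cell markers (7 genes) were 2407 to 11910 CPM in Treg libraries and 4845 to 7669 CPM in CD4+ libraries, so that the sorted cells carried the defining markers of T cells. Other cell types left traces: B cell markers (6 genes) summed to 0 to 500.3 CPM and macrophage and monocyte markers (10 genes) to 0 to 909 CPM in Treg libraries, against 1.18 to 83.7 and 2.35 to 30.4 CPM in CD4+ libraries. In such bulk samples, fewer cells of a type and less RNA per cell cannot be told apart.

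Foxp3, scaled here as all levels by the trimmed mean of M values (TMM) method, was read in every Treg library. It measured 359, 468 and 353 CPM in the SP/naive Treg libraries, 394, 342 and 323 in SP/CD127-/lo Tregs, 464, 425 and 574 in SP/CD127hi Tregs, and 529, 599.6 and 672 in graft Tregs. In the DLN it was 377, 358 and 206 CPM in naive Tregs, 166, 249 and 202 in CD127-/lo Tregs and 246, 272 and 259 in CD127hi Tregs. Graft Tregs were highest, with no overlap with SP/naive or SP/CD127-/lo Tregs, SP/CD127hi Tregs lay above SP/CD127-/lo Tregs without overlap, and the lowest values were in the DLN.

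In the Foxp3- subsets, Foxp3 was 8.20, 0.317 and 0.392 CPM in SP/naive CD4+ libraries and 0.456, 1.5 and 5.15 CPM in SP/tolerant CD4+ libraries, the highest of which rested on 25 and 20 counts. The CD45+CD4- libraries held 0 to 22 counts. EGFP, the reporter transcript, had 0 counts in all 6 CD4+ libraries, so that libraries with the most Foxp3 counts among CD4+ cells held no reporter count. This check follows from the sort on GFP. Among CD45+CD4- libraries, which were not sorted on GFP, 3 held EGFP counts, of which replicate 2 of tolerant mice had 13. Flicr, the noncoding RNA that overlaps Foxp3, was 38.1 ± 12.2 CPM (SD, n = 3) in SP/CD127-/lo Tregs, 33.1 ± 14.5 in SP/CD127hi Tregs, 54.2 ± 6.88 in SP/naive Tregs and 99.8 ± 22.2 in graft Tregs, and 14.1 ± 11.4 in SP/naive CD4+ cells. In the DLN it was 90.3 ± 31.7 CPM in naive, 72.6 ± 69.2 in CD127-/lo and 53.7 ± 53.7 in CD127hi Tregs.

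**Figure D1:**
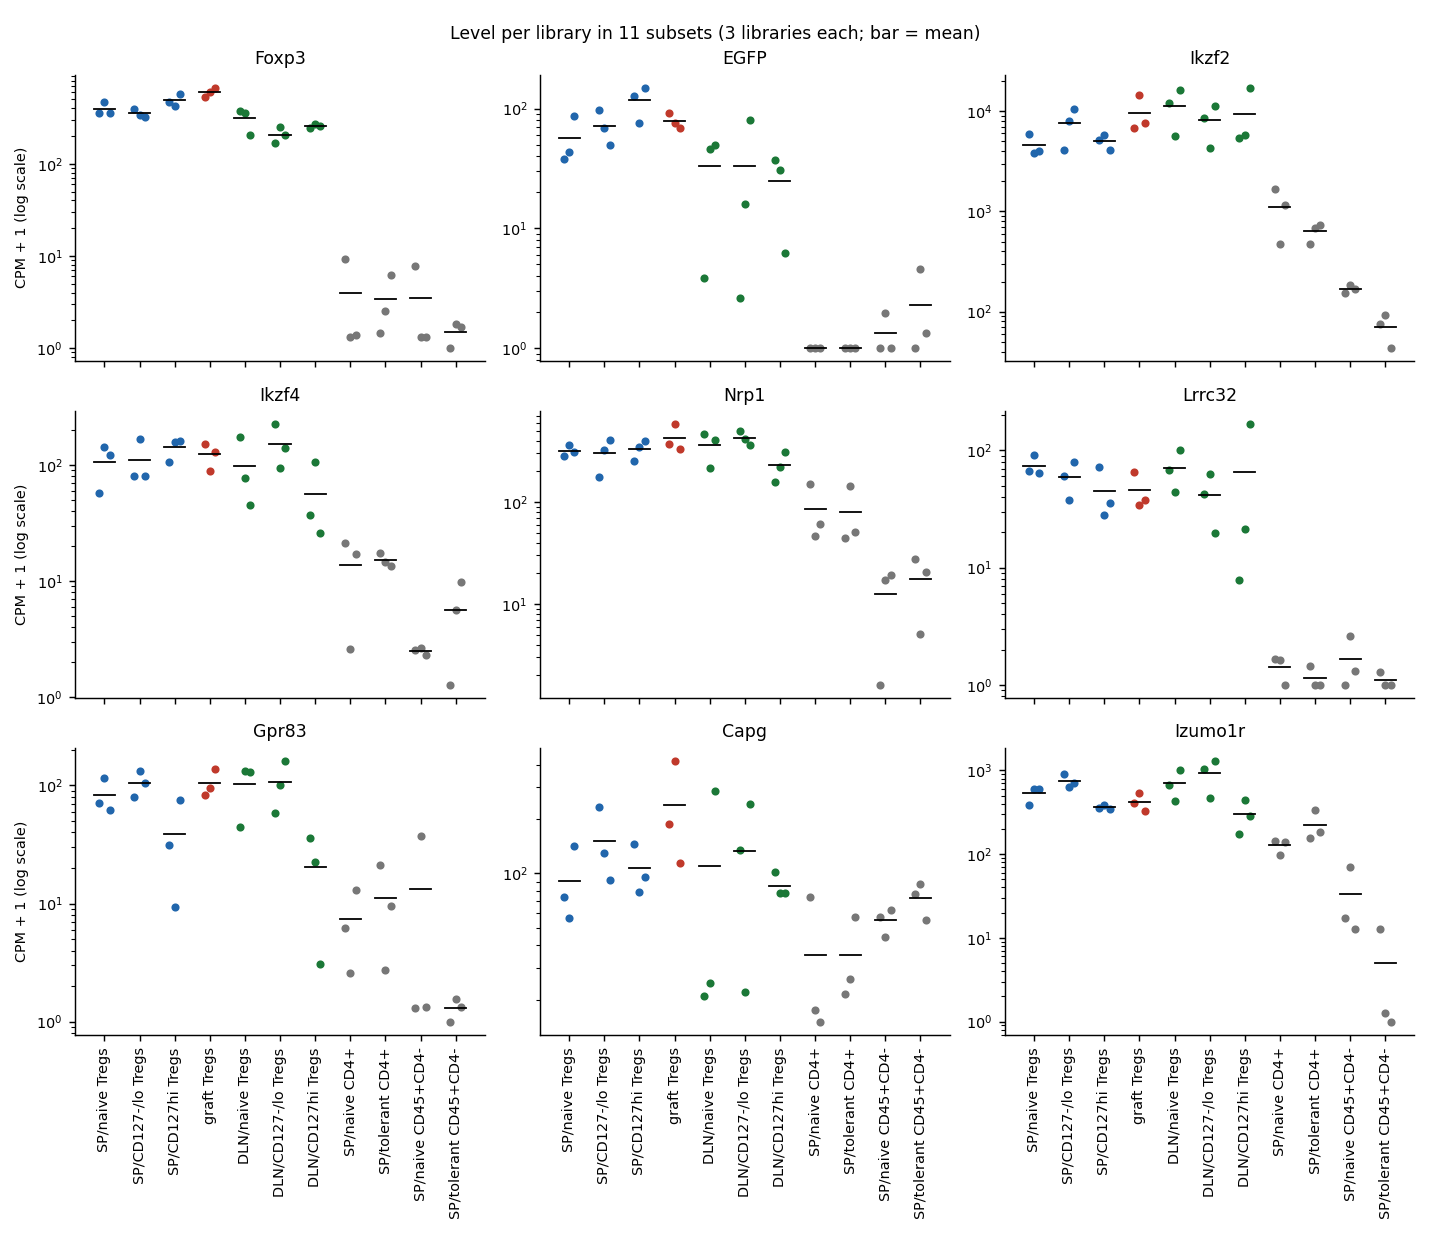
TMM-scaled CPM of the 8 members on a log axis in each of the 11 subsets, with 1 point per library and a bar for the mean of 3. Foxp3 and Lrrc32 lie near 0 in all Foxp3- subsets, whereas Ikzf2, Izumo1r, Nrp1 and Capg are also read in CD4+Foxp3- T cells.

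Ikzf2 was the most abundant member and varied most widely in absolute terms between replicates. The spleen values were 5882, 3819 and 4019 CPM in SP/naive Tregs, 4073, 8041 and 10460 in SP/CD127-/lo Tregs, 5152, 5725 and 4135 in SP/CD127hi Tregs, and those of graft Tregs were 6713, 14610 and 7632. In the DLN they were 12160, 5600 and 16150 CPM in naive Tregs, 8581, 4315 and 11340 in CD127-/lo Tregs, and 5401, 5780 and 17170 in CD127hi Tregs. Graft libraries lay above SP/naive and SP/CD127hi libraries without overlap, and the 3 DLN subsets overlapped one another. Ikzf2 ranked between 4 and 17 of all features in the 21 Treg libraries and took 0.345% to 1.72% of their counts. It was also read in CD4+Foxp3- T cells, at 1657, 470 and 1156 CPM in naive and 475, 685 and 737 CPM in tolerant mice, and at 42.4 to 182 CPM in CD45+CD4- cells.

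Ikzf4 was much less abundant. Its subset means ranged from 55.2 ± 43.3 CPM (SD, n = 3) in DLN/CD127hi Tregs to 151 ± 65.8 in DLN/CD127-/lo Tregs, with 105 ± 43.7 in SP/naive, 109 ± 49.8 in SP/CD127-/lo, 141 ± 30.6 in SP/CD127hi and 122 ± 31.9 in graft Tregs. The CD4+Foxp3- subsets were at 12.7 ± 9.83 and 14.2 ± 2.06 CPM, below every Treg library, whose lowest value was 24.9 CPM. In the order of the 11 subset means, 9 of the 10 neighbouring pairs overlapped, whereas the lowest Treg subset, DLN/CD127hi (36.0, 105 and 24.9 CPM), lay just below SP/CD127hi Tregs (106, 156 and 161 CPM) without overlap.

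Of the surface proteins, Nrp1 was 318 ± 38.9 CPM (SD, n = 3) in SP/naive, 301 ± 118 in SP/CD127-/lo, 330 ± 72.6 in SP/CD127hi and 425 ± 131 in graft Tregs, and 227 ± 76.3 to 423 ± 65.0 in the DLN. Nrp1 lay lower in DLN/CD127hi (155, 220 and 307 CPM) than in DLN/CD127-/lo Tregs (492, 414 and 363 CPM) without overlap. It was 84.9 ± 56.8 and 78.8 ± 55.8 CPM in naive and tolerant CD4+Foxp3- cells, and its lowest Treg library (155 CPM) lay just above its highest CD4+ library (149.9 CPM). Lrrc32 was nearly absent outside Tregs, with 0 to 2 counts per CD4+ library and 0 to 5 per CD45+CD4- library. In Tregs it was 73.0 ± 15.1 CPM in SP/naive, 58.3 ± 21.1 in SP/CD127-/lo, 44.1 ± 23.3 in SP/CD127hi and 44.7 ± 17.2 in graft libraries. The DLN/CD127hi libraries spread widely for Lrrc32, at 6.81, 20.5 and 166 CPM, of which the first rested on 7 counts.

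Gpr83 and Izumo1r shared their lowest Treg subset in both tissues that were sorted on CD127. Gpr83 was 69.9, 115 and 60.6 CPM in SP/naive, 78.3, 131 and 104 in SP/CD127-/lo, 30.6, 8.26 and 73.8 in SP/CD127hi, and 81.2, 93.6 and 136 in graft Tregs. In the DLN it was 43.3, 130.3 and 129.6 CPM in naive, 57.2, 99.6 and 159.5 in CD127-/lo and 35.0, 21.3 and 2.07 in CD127hi Tregs, the last of which was 2 counts. CD127hi Tregs lay below CD127-/lo Tregs without overlap in spleen and in DLN.

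Izumo1r was 389.8, 594 and 604 CPM in SP/naive, 916, 626 and 699.5 in SP/CD127-/lo, 351, 389 and 349.7 in SP/CD127hi, and 409.5, 531.5 and 325 in graft Tregs. In the DLN it was 669.6, 436.5 and 1025 CPM in naive, 1026, 473 and 1289 in CD127-/lo and 172, 448 and 284 in CD127hi Tregs. Again both CD127hi subsets lay below the CD127-/lo subset of their tissue without overlap. CD4+Foxp3- T cells carried Izumo1r at 144, 95.6 and 139 CPM in naive and 157, 335 and 182 CPM in tolerant mice, so that replicates 2 and 3 of tolerant mice lay within the Treg range. Gpr83 was 1.58 to 20.3 CPM there, which overlapped the lowest CD127hi libraries of spleen and DLN.

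Capg was read in all 11 subsets, and its Treg and CD4+Foxp3- libraries overlapped. Its means were 89.8 ± 45.1 CPM (SD, n = 3) in SP/naive, 151 ± 73.7 in SP/CD127-/lo, 106 ± 34.6 in SP/CD127hi and 239 ± 159 in graft Tregs, 34.5 ± 33.3 and 34.1 ± 19.7 in naive and tolerant CD4+Foxp3- cells, and 53.9 ± 9.5 and 72.4 ± 16.8 in CD45+CD4- cells. The graft libraries stood at 186, 418 and 114 CPM. The macrophage and monocyte markers summed to 76.1, 0 and 472 CPM in the same libraries, of which Lyz2 alone was 65.8, 0 and 427 CPM. The kidney epithelial marker Kap was 114, 887 and 13.4 CPM in them. The part of these other cells in the Capg values was not tested. Across DLN libraries Capg ranged from 19.9 to 284 CPM within the naive Tregs alone.

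Over the 21 Treg libraries and 6 CD4+Foxp3- libraries, every Treg library lay above every CD4+ library for Foxp3, Ikzf2, Ikzf4, Nrp1 and Lrrc32, while 19 Treg libraries did so for Gpr83, 18 for Izumo1r and 17 for Capg. The members were chosen as Treg genes, and for Foxp3 the sort on GFP fixed this outcome. The share of all features that separate in this way was not counted, here or for other groups described as without overlap. Between Treg subsets the highest mean exceeded the lowest 1.80-fold for Lrrc32, 1.87-fold for Nrp1, 2.47-fold for Ikzf2, 2.74-fold for Ikzf4, 2.83-fold for Capg, 2.92-fold for Foxp3, 3.08-fold for Izumo1r and 5.42-fold for Gpr83. Neighbours in the order of subset means mostly overlapped, in 9 of 10 pairs for Foxp3, Ikzf4, Lrrc32 and Gpr83, 8 for Nrp1, 7 for Ikzf2 and Izumo1r and 10 for Capg. The median coefficient of variation within a Treg subset was 15.8% for Foxp3, the lowest, and between 24.7% and 50.3% for the others.

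Levels of different genes were compared per kilobase of exon. On that scale Ikzf2 led with Treg subset means of 394 to 973 CPM per kilobase, followed by Izumo1r at 130 to 400.5 and Foxp3 at 44.9 to 131. Capg had 33.4 to 94.5, Nrp1 23.2 to 43.5, Ikzf4 9.21 to 25.2, Lrrc32 8.67 to 15.6 and Gpr83 3.82 to 20.7 CPM per kilobase. Transcripts of the 2 Ikaros family members thus differed widely in level, and the ranges of Ikzf4, Lrrc32 and Gpr83 overlapped.

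To ask which members separated Tregs from conventional T cells, Treg subsets were compared with CD4+Foxp3- T cells in edgeR by the quasi-likelihood test, with p adjusted by the Benjamini-Hochberg method over 25347 genes and a threshold of 0.05. All 8 members had a positive log2 fold change in all 6 comparisons, and 24 of 48 tests passed, all of them higher in Tregs. Against SP/naive CD4+ cells, 4 of 8 members passed in SP/naive Tregs (0.264% of all genes tested passed in this comparison), 4 in SP/CD127-/lo Tregs (0.469%), 4 in SP/CD127hi Tregs (0.422%) and 6 in graft Tregs (0.619%). Against SP/tolerant CD4+ cells, 3 passed in SP/CD127-/lo (0.284%) and 3 in SP/CD127hi Tregs (0.324%). The members were chosen as Treg genes, and for Foxp3 the sort on its reporter fixed the direction. The first 4 comparisons share their control libraries, as do the last 2. The median log2 fold change of the members was between 2.38 and 3.20, against -0.26 to 0 for all genes tested.

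Foxp3, Ikzf2 and Lrrc32 passed in all 6 comparisons. The mean level of Foxp3 was 132-fold higher in SP/naive Tregs than in SP/naive CD4+ cells, and its log2 fold changes were between 6.86 (SE 0.73) and 7.67 (SE 0.75). The size of this fold rested on replicate 1 of SP/naive CD4+ cells (8.20 CPM), without which each remaining control library held 1 Foxp3 count and the fitted log2 fold change of SP/naive Tregs was 9.93. Lrrc32, at or under the limit of detection in CD4+ cells, was at least 70.4-fold higher in SP/naive, 56.3-fold in SP/CD127-/lo, 42.6-fold in SP/CD127hi and 43.1-fold in graft Tregs than 3 counts per SP/naive CD4+ library. Ikzf2 was 4.18-fold higher in SP/naive Tregs (log2 fold change 2.06, SE 0.23, adjusted p 3.29e-13) and 8.82-fold higher in graft Tregs (3.14, SE 0.24, adjusted p 2.96e-26) than in SP/naive CD4+ cells, and 11.9-fold higher in SP/CD127-/lo Tregs than in SP/tolerant CD4+ cells (3.57, SE 0.24, adjusted p 1.56e-31). The Ikzf2 call in SP/naive Tregs was lost with the likelihood ratio test (adjusted p 0.1) and after ComBat-Seq (0.33), which also lost that in SP/CD127hi Tregs (0.157). ComBat-Seq lost the Lrrc32 call in all 6 comparisons (adjusted p 0.147 to 0.374), and the model of the compared libraries alone lost it in graft Tregs (0.106).

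The remaining 5 members passed in some comparisons or in none. Izumo1r was higher in SP/naive (log2 fold change 2.07, SE 0.50, adjusted p 0.0222) and SP/CD127-/lo Tregs (2.57, SE 0.51, adjusted p 0.000574) than in SP/naive CD4+ cells, and its log2 fold change of SP/CD127hi Tregs over SP/tolerant CD4+ cells was 0.69 (SE 0.48, adjusted p 0.75). Ikzf4 was higher in SP/CD127hi (3.47, SE 0.89, adjusted p 0.0334) and graft Tregs (3.27, SE 0.88, adjusted p 0.0444) and did not pass elsewhere, at adjusted p 0.0575 to 0.156, although DESeq2 passed it in the other 4 comparisons (adjusted p 0.000883 to 0.00525). Nrp1 (2.32, SE 0.57, adjusted p 0.0144) and Gpr83 (4.03, SE 1.08, adjusted p 0.0448) passed in graft Tregs only, although Nrp1 passed in the other 5 comparisons with the compared libraries alone (adjusted p 0.0117 to 0.0465). In that model Gpr83 also passed in SP/naive Tregs against SP/naive CD4+ cells (0.0269) and in SP/CD127-/lo Tregs against SP/tolerant CD4+ cells (0.00257). Izumo1r in graft Tregs (1.74, SE 0.49, adjusted p 0.0693) passed under RLE scaling (0.0474), no filter (0.0219), the compared libraries alone (0.0399) and the replicate block (0.0196). In SP/CD127-/lo Tregs against SP/tolerant CD4+ cells it passed with no filter (0.0378), the compared libraries alone (0.00265) and the replicate block (0.0263). In SP/CD127hi Tregs against SP/naive CD4+ cells it passed with the compared libraries alone (0.0379). Gpr83 was at adjusted p 0.0503 in SP/CD127-/lo Tregs, where 5 alternatives passed it, among them DESeq2 (0.014) and RLE scaling (0.0433), as did leaving out replicate 3 of SP/naive CD4+ cells (0.0473). Capg did not pass in any comparison, and its closest was graft Tregs (2.79, SE 0.77, adjusted p 0.0548). That Capg difference passed under DESeq2 (adjusted p 0.0167), RLE scaling (0.0474), no filter (0.0419) and the replicate block (0.0266), and without replicate 1 of SP/naive CD4+ cells (0.0137) or replicate 3 of graft Tregs (0.0304). With the compared libraries alone, Capg also passed in SP/CD127-/lo Tregs against SP/tolerant CD4+ cells (2.19, adjusted p 0.00969). The 6 calls of Izumo1r, Ikzf4, Nrp1 and Gpr83 were lost under the stricter filter and after ComBat-Seq. For Izumo1r the adjusted p was then 0.381 and 0.568 in SP/naive and 0.0997 and 0.337 in SP/CD127-/lo Tregs, and the likelihood ratio test lost both calls (0.347 and 0.0832) and DESeq2 that in SP/naive Tregs (0.145). For Ikzf4 it was 0.0505 and 0.326 in SP/CD127hi and 0.0672 and 0.284 in graft Tregs, where the compared libraries alone also lost the call (0.0993). For Nrp1 in graft Tregs it was 0.107 and 0.258, with 0.0942 in the likelihood ratio test. For Gpr83 in graft Tregs it was 0.137 and 0.267, with 0.0527 in the likelihood ratio test and 0.0506 with the compared libraries alone. Several calls also rested on single libraries. Each Ikzf4 call was lost when any of the 3 SP/naive CD4+ libraries was left out (adjusted p 0.0629 to 0.282 and 0.066 to 0.281), or replicate 2 or 3 of SP/CD127hi Tregs (0.0812 and 0.0868), or replicate 1 or 3 of graft Tregs (0.11 and 0.0769). The Gpr83 call was lost without replicate 1 or 2 of SP/naive CD4+ cells (adjusted p 0.147 and 0.221) or replicate 2 or 3 of graft Tregs (0.0579 and 0.0977). The Nrp1 call was lost without replicate 2 or 3 of SP/naive CD4+ cells (adjusted p 0.144 and 0.101) or replicate 2 of graft Tregs (0.0961). That of Izumo1r in SP/naive Tregs was lost without replicate 2 of SP/naive CD4+ cells (0.079) or replicate 3 of SP/naive Tregs (0.103), and that of Lrrc32 in SP/CD127hi Tregs without replicate 3 of SP/naive CD4+ cells (0.0713). The macrophage marker Lyz2 also passed in all 6 comparisons, and was 65.8, 0 and 427 CPM in graft Tregs against 0 to 0.317 in SP/naive CD4+ cells. It was the only 1 of the 10 macrophage and monocyte markers that passed. In graft Tregs against SP/naive CD4+ cells, 4 of the 10 had a positive log2 fold change, with a median of -0.55. In the graft libraries, 4 of the 10 had no count. The part of Lyz2 in the Capg and Nrp1 values was not tested.

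**Figure D2:**
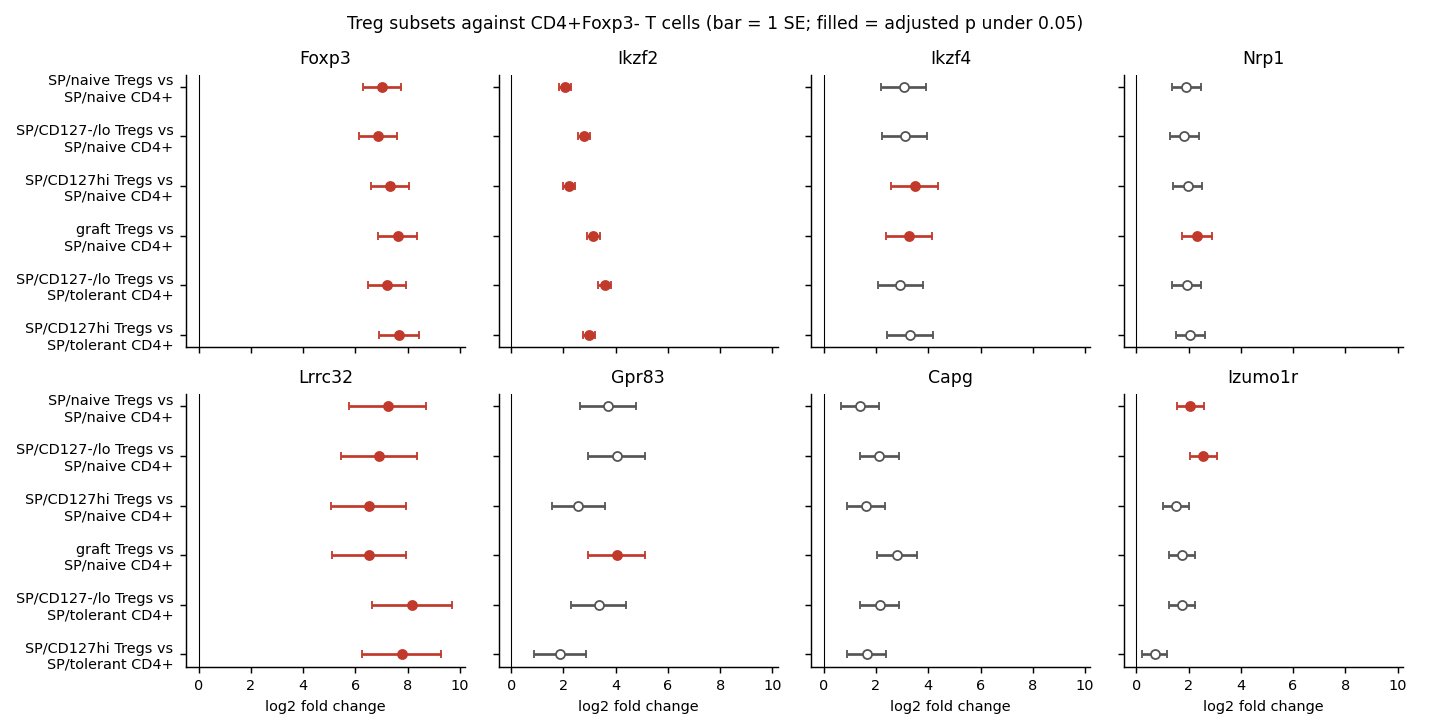
Log2 fold change of each member in 6 comparisons of Treg subsets with CD4+Foxp3- T cells, with bars of 1 SE from the quasi-likelihood fit and filled points where the adjusted p was under 0.05. Foxp3, Ikzf2 and Lrrc32 are filled in all 6 comparisons and Capg in none.

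Among genes known to be shared by Tregs besides the members, 9 of 20 were higher in SP/naive, 11 in SP/CD127-/lo, 9 in SP/CD127hi and 9 in graft Tregs than in SP/naive CD4+ cells, and 0 were lower. In SP/naive Tregs the smallest adjusted p belonged to Il2ra and Il2rb, chains of the IL-2 receptor, the integrin Itgae and Swap70. Il2ra was 398 ± 98.7 CPM (SD, n = 3) there against 0.674 ± 0.555 in SP/naive CD4+ cells, Itgae 81.8 ± 48.1 against 0.447 ± 0.478 and Swap70 40.7 ± 6.46 against 0.422 ± 0.731, and Il2rb had a log2 fold change of 3.53 (SE 0.58). Against SP/tolerant CD4+ cells, 7 and 5 of the 20 were higher in SP/CD127-/lo and SP/CD127hi Tregs. Tolerant CD4+Foxp3- cells themselves held more Il2ra than naive ones, at 19.6 ± 3.77 CPM (adjusted p 1.2e-07).

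Genes that Tregs are known to express less than conventional T cells were partly lower here, with 3, 4, 4 and 4 of 14 passing as lower in SP/naive, SP/CD127-/lo, SP/CD127hi and graft Tregs than in SP/naive CD4+ cells, and 3 and 3 against SP/tolerant CD4+ cells. In SP/naive Tregs the phosphodiesterase Pde3b was 0.430 ± 0.525 CPM (SD, n = 3) against 227 ± 53.5 in SP/naive CD4+ cells, Dapl1 36.7 ± 12.5 against 910.1 ± 294, and the transcription factor Lef1 had a log2 fold change of -2.34 (SE 0.57). Of 28 genes of Foxp3 transcription and its protein complex, 0 were higher in any of the 6 comparisons, and the chromatin organiser Satb1 was lower in all 6, by -1.72 (SE 0.40) to -2.56 (SE 0.41) on the log2 scale. Foxp1, the forkhead relative of Foxp3, was lower in SP/CD127-/lo Tregs (-1.58, SE 0.38) and Bach2 in graft Tregs (-2.34, SE 0.57). The median log2 fold change of this list was between -0.07 and 0.52.

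Of 27 relatives and partners of the members, the integrin Itgb8, whose product activates TGF-β, was higher in all 4 comparisons with SP/naive CD4+ cells, by 2.84 (SE 0.75) to 3.24 (SE 0.76). Ikzf1, which encodes Ikaros, was lower in SP/CD127-/lo (-1.73, SE 0.43) and graft Tregs (-1.74, SE 0.43). Within the Ikaros family, Ikzf2 thus rose while Ikzf1 fell in these 2 comparisons. Against SP/tolerant CD4+ cells, 0 of the 27 passed.

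To examine whether identity genes differed between splenic Treg subsets, the 3 subsets were compared with one another. By edgeR's quasi-likelihood test and by DESeq2, 0 of the 24 tests of members passed, and at an unadjusted p under 0.05 there were 3 (Ikzf2 in 2 comparisons and Izumo1r in 1), a threshold that 5.09% to 6.74% of all genes met. Of all genes, 0.0907% passed between SP/CD127hi and SP/CD127-/lo Tregs, 0.0197% between SP/CD127hi and SP/naive Tregs and 0.071% between SP/CD127-/lo and SP/naive Tregs. Il7r, which encodes CD127 and was used for the gate, was 1.92 higher on the log2 scale (SE 0.37) in SP/CD127hi than in SP/CD127-/lo Tregs. Foxp3 differed by 0.47 (SE 0.55, adjusted p 0.872) between them. Izumo1r had a log2 fold change of -1.04 (SE 0.48, unadjusted p 0.0325, adjusted p 0.682) and Gpr83 of -1.47 (SE 0.97, adjusted p 0.778), both lower in CD127hi in 3 of 3 libraries. The summed T cell markers also differed between these subsets, at 4385, 4221 and 3555 CPM in SP/CD127hi against 11910, 7295 and 7915 in SP/CD127-/lo Tregs, without overlap. B cell markers summed to 85.55, 5.815 and 79.9 CPM against 33.05, 22.9 and 42.21, and Ms4a1 alone of the 6 passed, as higher. Dendritic cell markers (6 genes) summed to 18.3, 2.14 and 17.7 CPM against 0 in each SP/CD127-/lo library, and 0 passed. The part of these markers in the Izumo1r and Gpr83 values was not tested. Ikzf2 had a log2 fold change of 0.72 (SE 0.22, adjusted p 0.648) in SP/CD127-/lo over SP/naive Tregs, which passed without replicate 1 of SP/naive (0.94, adjusted p 0.00887) or of SP/CD127-/lo Tregs (1.02, adjusted p 0.0209).

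Graft Tregs were compared with each splenic subset, and 2 of 24 member tests passed. Ikzf2 was higher in graft than in SP/naive Tregs (2.11-fold, log2 fold change 1.08, SE 0.22, adjusted p 0.00353; 0.13% of genes passed) and than in SP/CD127hi Tregs (1.93-fold, 0.95, SE 0.22, adjusted p 0.0391; 0.103%), and the test against SP/CD127-/lo Tregs was not passed (0.36, SE 0.22, adjusted p 0.847; 0.0829%). Both calls were lost without graft replicate 2, the library with 14610 CPM, when the log2 fold changes were 0.65 (adjusted p 0.315) and 0.52 (adjusted p 0.474), and the second also without replicate 3 of SP/CD127hi Tregs (0.83, adjusted p 0.0555). The likelihood ratio test, DESeq2, a stricter filter, a model of the compared libraries alone and ComBat-Seq each lost both calls, at adjusted p 0.267 to 0.639. The SE of 0.22 came from a fit over 25347 genes, whereas the spread of Ikzf2 between Treg libraries (SD 0.66 on the log2 scale) alone gives an SE of 0.54.

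Foxp3 was 1.53-fold higher in graft than in SP/naive Tregs and 1.70-fold higher than in SP/CD127-/lo Tregs without overlap, but did not pass (log2 fold changes 0.61, SE 0.55, adjusted p 0.793, and 0.77, SE 0.55, adjusted p 0.85). For Foxp3 the fit gave a wider SE than the Treg libraries themselves, whose SD of 0.26 on the log2 scale gives an SE of 0.21. Graft libraries also held kidney epithelial markers (7 genes), at 117, 891 and 16.7 CPM, against at most 28.9 CPM in any other library, and the highest sum was in graft replicate 2. Most of each sum was the single gene Kap, at 114, 887 and 13.4 CPM. Of the 7 genes, Kap alone passed against each splenic Treg subset. The part of this trace in the Ikzf2, Nrp1 and Capg values was not tested.

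**Figure D3:**
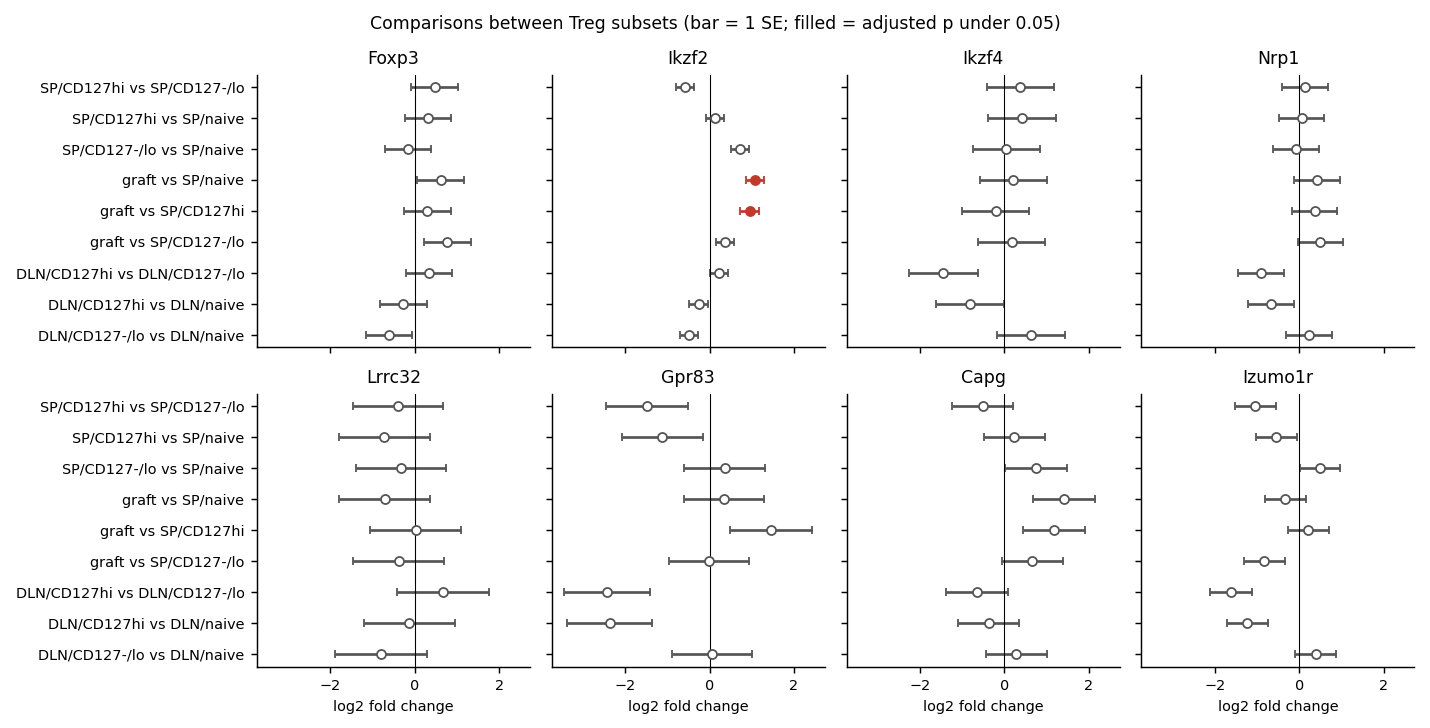
Log2 fold change of each member between Treg subsets of spleen, graft and DLN, with bars of 1 SE and filled points where the adjusted p was under 0.05. The 2 filled points are Ikzf2 in graft against SP/naive and against SP/CD127hi Tregs, and Gpr83 and Izumo1r lie below 0 for CD127hi against CD127-/lo in both tissues.

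In the DLN, 0 of 24 member tests passed in edgeR or DESeq2, against 0.418% of all genes between DLN/CD127hi and DLN/CD127-/lo Tregs, 0.951% between DLN/CD127hi and DLN/naive Tregs and 0.355% between DLN/CD127-/lo and DLN/naive Tregs. At an unadjusted p under 0.05, Gpr83 and Izumo1r were lower in CD127hi Tregs than in both other subsets and Ikzf2 in CD127-/lo than in naive Tregs, a threshold that 8.75% to 10.6% of all genes met. Between CD127hi and CD127-/lo Tregs, the log2 fold change of Izumo1r was -1.62 (SE 0.49, unadjusted p 0.00109, adjusted p 0.114) and that of Gpr83 -2.43 (SE 1.01, unadjusted p 0.0173, adjusted p 0.384). Without replicate 2 of DLN/CD127-/lo or of DLN/CD127hi Tregs, Izumo1r passed (-1.94, adjusted p 0.0104, and -1.99, adjusted p 0.0198). All 8 members had a negative log2 fold change in DLN/CD127hi (male) against DLN/naive (female) Tregs, with a median of -0.52, while the median of all genes was 0.40 and scaling by relative log expression (RLE) in place of TMM moved it by 0.18. Without replicate 3 of DLN/CD127hi Tregs, the library with 17170 CPM, Ikzf2 passed in that comparison (-1.09, adjusted p 5.97e-05), and it passed with DLN/CD127-/lo replicate 3 left out between DLN/CD127-/lo and DLN/naive Tregs (-0.78, adjusted p 0.0243).

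Markers of other cells were also read in the DLN/CD127hi libraries, and few of them passed. B cell markers summed to 500.3, 222 and 141 CPM there against 58.2, 11.9 and 3.72 in DLN/naive Tregs and 79.0, 193 and 80.1 in DLN/CD127-/lo Tregs. Macrophage and monocyte markers summed to 602, 909 and 776 CPM against 345, 4.20 and 429 and 119.9, 748 and 102. Plasma cell markers (3 genes) were at 1405, 369 and 141 CPM against 2.84, 137 and 261 and 2.18, 29.9 and 195. Against DLN/CD127-/lo Tregs, 0 of 6 B cell, 0 of 10 macrophage and monocyte and 1 of 3 plasma cell markers passed as higher. Against DLN/naive Tregs, 2, 0 and 0 did. The CD8 T cell marker Cd8a passed as higher against DLN/CD127-/lo and Cd8b1 against DLN/naive Tregs. The neutrophil marker S100a8 passed against both, with neutrophil sums of 16.6, 0 and 0 CPM in DLN/CD127hi Tregs. The part of these markers in the lower Gpr83 and Izumo1r values was not tested. Among the other lists, Runx3, a partner of Foxp3, was 0.545 ± 0.944 CPM (SD, n = 3) in DLN/CD127-/lo Tregs, below DLN/CD127hi (36.7 ± 41.6, adjusted p 0.0211) and DLN/naive Tregs (27.2 ± 10.7, adjusted p 0.0449), and Swap70 was lower in DLN/CD127-/lo than in DLN/naive Tregs (-3.67, SE 0.92, adjusted p 0.0362).

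Whether an effect differed between DLN and spleen was tested as the difference of the 2 effects, in which tissue and sequencer again cannot be told apart. The CD127-/lo against naive effect also cannot be told apart from sex, since its naive mice were male for spleen and female for DLN. In edgeR and in DESeq2, 0 of 16 tests of members passed (0.118% of genes for the CD127hi against CD127-/lo effect and 0.138% for the CD127-/lo against naive effect). The difference was -0.96 (SE 1.36, adjusted p 0.979) for Gpr83 and -0.58 (SE 0.68, adjusted p 0.921) for Izumo1r in the CD127hi effect. At an unadjusted p under 0.05, which 7.82% and 10.1% of all genes met for the 2 effects, Ikzf2 was the member found in each. Its difference in the CD127hi effect was 0.81 (SE 0.31, adjusted p 0.426). Its CD127-/lo against naive effect differed by -1.20 (SE 0.31, unadjusted p 0.000143, adjusted p 0.0755), being -0.48 in the DLN and 0.72 in the spleen. This difference passed when 1 of 6 libraries was left out, namely replicate 1 or 2 of DLN/naive, replicate 1 or 3 of DLN/CD127-/lo, replicate 1 of SP/naive or replicate 1 of SP/CD127-/lo Tregs (adjusted p 2.54e-05 to 0.0464). The CD127hi effect on Ikzf2 passed without replicate 3 of DLN/CD127-/lo or replicate 1 or 2 of DLN/CD127hi Tregs (adjusted p 0.00541 to 0.00843).

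The Foxp3- subsets showed which members are read outside Tregs. Between tolerant and naive CD4+Foxp3- T cells 0 of 8 members passed (0.107% of genes) in edgeR or DESeq2, and Ikzf2 alone had an unadjusted p under 0.05, which 7.01% of all genes met, with log2 fold changes of -0.79 (SE 0.22, adjusted p 0.214) for Ikzf2 and 0.83 (SE 0.48, adjusted p 0.692) for Izumo1r. Without replicate 2 of SP/naive CD4+ cells, the library with 470 CPM, Ikzf2 passed (-1.15, adjusted p 2.84e-06). In CD4+ against CD45+CD4- cells, 3 of 8 passed in naive mice (1.04% of genes) and 4 of 8 in tolerant mice (1.53%), all higher in CD4+ T cells. Ikzf2 was higher by 2.70 (SE 0.23) and 3.18 (SE 0.24), Izumo1r by 1.96 (SE 0.50) and 5.76 (SE 0.60), and Nrp1 by 2.86 (SE 0.58) and 2.24 (SE 0.57). Gpr83 passed in tolerant mice (adjusted p 0.00956), at 20.3, 1.74 and 8.5 CPM in CD4+ cells against 0, 2 and 1 counts in CD45+CD4- cells. The Izumo1r call in naive mice was lost without replicate 1 or 3 of the CD45+CD4- libraries (adjusted p 0.134 and 0.124), the Nrp1 call in tolerant mice without replicate 2 of either group (0.157 and 0.319), and the Gpr83 call without CD45+CD4- replicate 1 or 3 or CD4+ replicate 1 (0.0986, 0.0655 and 0.142). The Izumo1r call in naive mice was also lost with the likelihood ratio test (0.216), DESeq2 (0.146), the stricter filter (0.164), the compared libraries alone (0.121) and ComBat-Seq (0.314). The Nrp1 call was lost in naive mice with the compared libraries alone (0.081) and ComBat-Seq (0.107), and in tolerant mice with the likelihood ratio test (0.0798), the stricter filter (0.0569) and ComBat-Seq (0.222). The Gpr83 call was lost with the stricter filter (0.0526), the compared libraries alone (0.0684) and ComBat-Seq (0.084). Gpr83 in naive CD45+CD4- cells was 0.306, 36.2 and 0.322 CPM, so that replicate 2 alone held 111 counts.

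CD45+CD4- cells of tolerant mice had less Ikzf2 and Izumo1r than those of naive mice, and 2 of 8 members passed (0.0355% of genes). Ikzf2 was 74.6, 92.1 and 42.4 CPM against 153, 182 and 169 (log2 fold change -1.27, SE 0.22, adjusted p 0.000203). Izumo1r was 11.9, 0.275 and 0 CPM against 16.5, 68.8 and 11.9 (-2.97, SE 0.53, adjusted p 0.000282). The groups did not overlap for either gene, although the highest tolerant and the lowest naive Izumo1r library were almost equal. Without naive replicate 2 or tolerant replicate 3 the Izumo1r call was lost (-1.80, adjusted p 0.321, and -2.41, adjusted p 0.106), and without tolerant replicate 3 so was that of Ikzf2 (-1.01, adjusted p 0.0603). The likelihood ratio test, a stricter filter, the compared libraries alone and ComBat-Seq lost both calls, and DESeq2 lost that of Ikzf2 (adjusted p 1). Gpr83 (adjusted p 0.0784) passed here under DESeq2 (0.0491), with no filter (0.0415) and without naive replicate 1 (0.0114) or 3 (0.0144), its naive level resting on replicate 2. T cell markers summed to 840, 793 and 589.9 CPM in tolerant against 897, 1030 and 2126 in naive libraries and neutrophil markers (3 genes) to 318, 2423 and 2668 against 34.8, 396 and 555, and their part in these differences was not tested.

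The genes whose level over the 11 subsets was most like that of each member were found by the correlation of mean log2 CPM among 11269 genes with at least 10 CPM in a subset, as a description. For Foxp3 these were Lrrc32 (r = 0.987), Socs2 (0.980), Lclat1 (0.975), EGFP (0.961) and Fam129a (0.961). Nrp1 was most like the coinhibitory receptor Ctla4 (0.984) and then Ikzf4 (0.978), and Ikzf4 was most like Nrp1 and then Ctla4 (0.972). Ctla4 was also among the 3 closest genes of Ikzf2 (0.971) after Lockd (0.978) and Iigp1 (0.976). Ptpn13 (0.947) was the next for Ikzf4, and Ikzf2 (0.958) was the next for Nrp1. Izumo1r was closest to the costimulatory receptors Tnfrsf4 (0.987) and Icos (0.967) and to Cdh23 (0.969). Gpr83 was closest to Ift80 (0.967), Tiam1 (0.953) and Tnfrsf9 (0.945), Capg to Lrrc58 (0.914), Arrdc4 (0.904) and Gbp3 (0.902), and Lrrc32 to Foxp3, Socs2 (0.968) and Lclat1 (0.965).

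Over the 7 Treg subsets alone, the likeness was kept in some of these pairs and not in others. For Foxp3, r was then 0.895 with EGFP, 0.682 with Fam129a and 0.635 with Lclat1, but 0.281 with Socs2 and 0.245 with Lrrc32. It was 0.849 for Ikzf4 with Ptpn13, 0.848 for Capg with Lrrc58, 0.813 for Izumo1r with Cdh23 and 0.809 for Gpr83 with Ift80, but 0.174, 0.38 and 0.154 for Ctla4 with Ikzf2, Ikzf4 and Nrp1, and 0.131 for Icos with Izumo1r. Within Tregs, Ikzf4 with Nrp1 (0.824) and the neighbours Gpr83 with Izumo1r (0.821) were the member pairs with the highest values. These points share libraries, depth and, for the DLN, the sequencer.

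Whether the reporter followed Foxp3 from library to library was asked with a two-sided permutation test of log2 CPM, in a family of 6 relations. Over 21 Treg libraries Pearson's r was 0.543 (permutation p 0.0102, adjusted p 0.0372) and Spearman's rho 0.542 (permutation p 0.0124, adjusted p 0.0372). Without the 2 libraries farthest from the median of Foxp3, r was 0.387 (permutation p 0.101), and rho was 0.475 (permutation p 0.0419), neither p being adjusted for the family. Neither measure passed, after adjustment, within either sequencer, with r = 0.374 and rho = 0.308 in the 12 spleen and graft libraries (permutation p 0.231 and 0.331, adjusted p 0.462 and 0.497) and r = -0.005 and rho = -0.183 in the 9 DLN libraries (permutation p 0.989 and 0.643, adjusted p 0.989 and 0.772). The ratio of Foxp3 to EGFP CPM, which was not scaled to transcript length and so says nothing of which is more abundant, ranged from 3.64 to 11 over spleen and graft libraries and from 2.52 to 133 over DLN libraries, where EGFP rested on as few as 3, 4 and 5 counts.

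**Figure D4:**
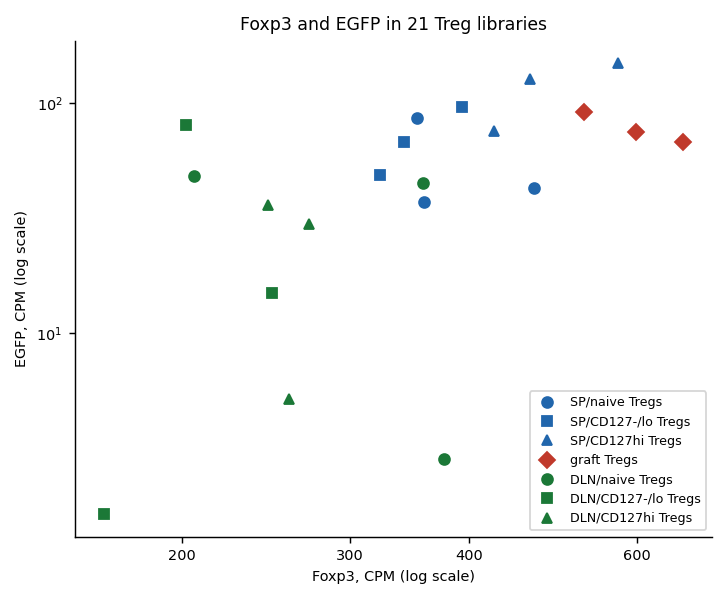
Foxp3 against EGFP in the 21 Treg libraries, both as TMM-scaled CPM on log axes, with 1 point per library by subset. Spleen and graft libraries lie between 37.2 and 149 CPM of EGFP, and 3 DLN libraries lie at 1.64, 2.84 and 5.18 CPM with Foxp3 at 166, 377 and 259 CPM.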

How the data were processed

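Reads were trimmed (Trim Galore) and aligned by the authors with STAR to an mm10 genome that included EGFP. Their methods name HTSeq for counting, whereas the files have the layout of STAR gene counts. The deposited values are unnormalized read counts per gene over both strands. Totals of reads without a gene (21.0% to 52.3% in spleen and graft, 33.0% to 62.0% in the DLN) were left out. Versions are not given in the sources used here. Gene positions came from GENCODE M21 and promoters from RefSeq (GRCm38.p6).

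The 25347 genes reaching 1 CPM in 1 or more libraries were fitted in R 4.3.3 with edgeR 4.0.16 (TMM scaling, 1 mean per subset over all 33 libraries, quasi-likelihood test, Benjamini-Hochberg adjustment). The SE is the log2 fold change over the root of the F statistic. Alternatives used the likelihood ratio test, DESeq2 1.42.0, RLE scaling, other filters, the compared libraries only, ComBat-Seq in sva 3.50.0, the replicate number as a block and each library left out. Permutation tests drew 100000 resamples in scipy 1.17.1. In data simulated for SP/CD127hi against SP/CD127-/lo Tregs with 25347 genes, 7 of 100 genes changed 4-fold and 59 of 100 changed 16-fold were recovered, with 3 false calls. The 33 pairs of libraries within a subset differed beyond sampling noise (chi-square per degree of freedom of at least 24.7).

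Members and lists were chosen with earlier results of these data known. The text names the members, EGFP, at most 4 genes per list and comparison with the smallest adjusted p, and the genes most like Foxp3 (5) and each other member (3). Flicr, Lyz2, Kap, Ms4a1, Cd8a, Cd8b1, S100a8, the gate gene Il7r and the repeated list genes were named after their values were seen.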

Additional observations from a re-analysis of the deposited data

How the results depend on the processing

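The counts of members past the threshold depended on the test where calls were few. Of the 35 member tests that passed, 35 also passed under RLE scaling, with no filter on low counts and with the replicate number as a block, 30 with DESeq2, 25 with the compared libraries only, 24 with the likelihood ratio test, 22 with a filter keeping genes that reach 10 counts in 3 or more libraries and 13 after ComBat-Seq, which was given the sequencer as batch although the MiSeq held Tregs only. None of the 35 changed direction under any alternative. For Treg subsets against CD4+Foxp3- T cells, ComBat-Seq left 10 of 48 calls against 24, and the other alternatives gave 18 to 36. For graft against splenic Tregs, the 2 calls became 0 with the likelihood ratio test, DESeq2, the stricter filter, the compared libraries only and ComBat-Seq, and 0 to 2 when each library was left out. Between Foxp3- subsets, the 9 calls became 5 with the likelihood ratio test, 4 with the stricter filter, 4 with the compared libraries only and 3 after ComBat-Seq, and rose to 11 with no filter and 10 with the replicate block. Between splenic Treg subsets, 0 calls became 1 with no filter, 1 with the replicate block and 0 to 1 with a library left out, and in the DLN 0 became 1 with the replicate block and 0 to 1 with a library left out. For the difference of DLN and splenic effects, 0 became 1 with no filter, 2 with the compared libraries only, 1 with the replicate block and 0 to 2 with a library left out. Replicate numbers did not meet the rule for pairing, since 161 of 165 same-numbered pairs had a correlation under 0.1. Of 33 libraries, 15 correlated best with their own number, and within naive and within tolerant subsets 9 of 12 and 10 of 21 did so. The block passed Ikzf2 in SP/CD127-/lo against SP/naive Tregs (adjusted p 0.00492), in SP/tolerant against SP/naive CD4+ cells (0.000295) and in the difference of the DLN and splenic CD127-/lo effects (4.79e-05), and Izumo1r in DLN/CD127hi against DLN/CD127-/lo Tregs (adjusted p 0.0461). The correlation of Foxp3 with EGFP of 0.543 became 0.387 without the 2 libraries farthest from the median (Spearman's rho went from 0.542 to 0.475), 0.374 within the NextSeq 500 and -0.005 within the MiSeq. Without graft replicate 2, Ikzf2 in graft against SP/CD127-/lo Tregs turned from 0.36 to -0.069 (range with a library left out -0.069 to 0.672). The cause of these changes was not tested. Of 99 subset means of members and EGFP, 49 moved by more than 1 SD after ComBat-Seq, 3 under RLE and 2 on the total count. In data simulated for SP/CD127hi against SP/CD127-/lo Tregs, 7 of 100 genes changed 4-fold were recovered, so that most simulated differences of that size were missed there. The changed genes reached down to low counts, so this share does not give the recovery for the members themselves.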
